A study of Mus musculus with 12 samples.

Results

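The 27 genes described here, of 37991 counted in MEL cells, each had at most 5 reads summed over the 3 control libraries and at least 50 reads summed over each of the other 3 groups. The members were chosen by those read totals. MEL is a mouse erythroleukemia line, and all 12 libraries hold polyadenylated RNA from cells induced toward red cell maturation. The control group (labelled IMEL) is the line without knockdown, and the KD group is the line with LDB1 knocked down. The FL group is knockdown cells that also express full-length LDB1, and the delta45 group is knockdown cells that express the LDB1 construct named delta 4/5. All 9 libraries outside control therefore carry the knockdown, and they are called derived libraries here. The labels do not say which promoter drives either construct, or whether each line is a clone or a pool. A difference between control and the derived libraries thus cannot be told apart from a difference between cell lines. Each group has 3 libraries, and nothing in the labels says that they came from separate cultures, so every p-value below weighs a difference only against variation among these libraries, part of which could be technical.

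LDB1 is a LIM-domain-binding protein without DNA-binding activity of its own. In erythroid cells it joins GATA1, TAL1 and LMO2 into a complex that binds GATA and E-box motifs and brings distant enhancers to promoters. The 27 genes have no textbook role in red cells as a group. They include an actin monomer buffer (Tmsb4x), an enzyme that supplies the sugar phosphate for nucleotide synthesis (Prps2), a membrane-anchored matrix protease (Mmp14), sodium channel subunits (Scn2b, Scn4b) and genes best known from germ cells (Tex19.1, Hormad2, Ybx2) or neurons (Dnajc6, Armcx1, Btbd3).

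Gene reads ranged from 8783970 to 20464959 per library, and levels are CPM (reads per 1000000 gene reads, with TMM library scaling). Ldb1, the targeted gene, stood at 718 ± 71.2 CPM in control (SD, n = 3 here and below), 130 ± 31.2 in KD, 765 ± 15.4 in delta45 and 3440 ± 245 in FL, and the counts hold construct and endogenous reads together. The erythroid marker list was read in every group, with all 11 of its genes above 0. Its sum was 11700 to 12700 CPM for control libraries, 2490 to 4670 for KD libraries, 4930 to 5140 for delta45 libraries and 32800 to 39800 for FL libraries. The sums of KD and delta45 differ largely through Tfrc, at 569 ± 71.9 CPM in KD and 2120 ± 318 in delta45. In the edgeR test described below, 5 of the 11 were higher and 3 lower in delta45 than in KD (29.2% and 30.7% of all tested genes). Their median log2 change there was -0.091. The Y-linked genes Ddx3y, Eif2s3y, Kdm5d and Uty were read in all 4 groups, while the mean level of Xist was at most 0.256 CPM in any group. The share of tallied reads with more than 1 alignment was 50.6 to 53.3% for control libraries, 42.7 to 48.5% for KD, 38.7 to 39.2% for delta45 and 42.3 to 47.1% for FL. The part of this share in the control zeros was not tested.

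The values that chose the genes are given as a description. Over control, 13 of the 27 had 0 reads and 14 had 1 to 5, which made 35 reads in all among 35592911 gene reads. The same genes held 34424 reads over KD, 30055 over delta45 and 171877 over FL, and each had reads in all 9 derived libraries, the lowest count being 11. Tmsb4x held 76.9% of all these reads. A gene with 0 reads over control could still have a level of up to 0.0826 CPM there (3 reads over the group, counting error only). Just outside the rule stood Galk2, the second galactokinase-like gene, with 6 control reads and 586, 742 and 616 in KD, delta45 and FL. Lamb2, a laminin chain, had 7 control reads, and Camkv had 8. Radil had 0 control reads and missed the lower limit with 45 in FL, as did Serpina3f with 46. Just inside were Ybx2, Itm2a, Scn2b and Gm17040 with 5 control reads each, Six2 with 55 reads over FL and Mpped1 with 52 over delta45. With the same limits no gene was silent in KD alone, 5 were silent in delta45 alone and 5 in FL alone. In the mirror pattern 86 genes were read in control alone, 15 in KD alone, 2 in delta45 alone and 0 in FL alone.

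**Figure D1:**
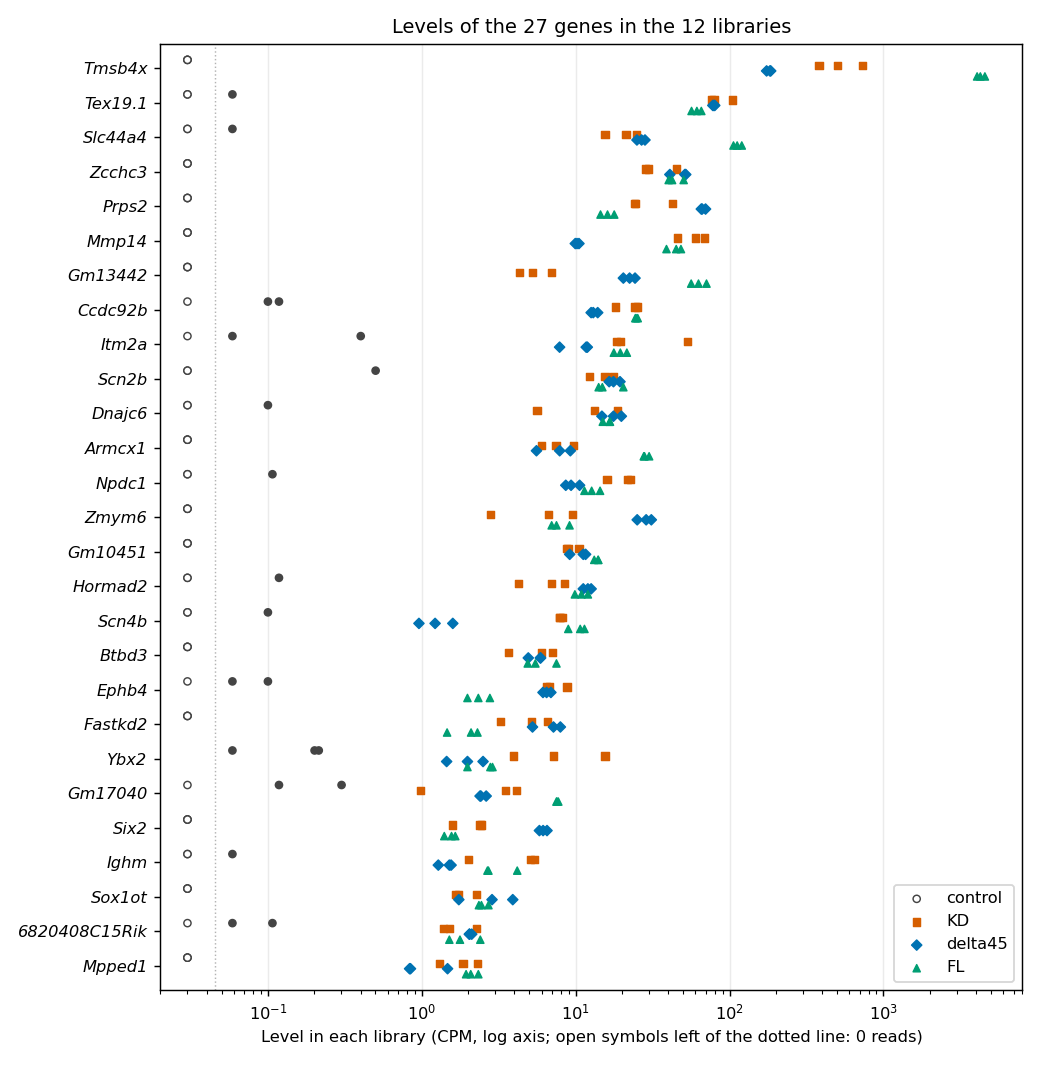
Level of each of the 27 genes in each of the 12 libraries, in CPM on a log axis, ordered by mean level in the derived libraries; open circles left of the dotted line are control libraries with 0 reads. Tmsb4x lies far to the right in the 3 FL libraries (4060 to 4560 CPM), and the control points of all 27 genes lie below every derived point of the same gene.

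Per kilobase of exon, Tmsb4x stood apart from the other members. Its RPKM (CPM per kilobase of merged exons in the GENCODE M21 annotation) was 392 ± 130 in KD, 132 ± 4.15 in delta45 and 3130 ± 183 in FL. That placed it 69th, 225th and 4th among 12490 tested genes with a known length. Tex19.1 followed at 46.3 ± 8.11, 42.2 ± 0.618 and 32.7 ± 2.39 RPKM. Most other members were low: 5 of the 27 lay above the median of tested genes in KD, 5 in delta45 and 7 in FL. The lowest mean level was that of Mpped1 in delta45, at 0.244 RPKM.

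Promoter sequences are shown for 2 of the pairs of members that lie together on a chromosome, Tmsb4x with Prps2 and Scn2b with Scn4b, and for Tex19.1, whose neighbour and paralog Tex19.2 was read in control. Each is the 250 bases before the annotated start in RefSeq (build GRCm38.p6), read 5′ to 3′ along the gene's strand. Capitals mark, on either strand, a GATA form (AGATAA or TGATAA or AGATAG or TGATAG), the E-box form CAGNTG, the GC box GGGCGG, the CCAAT box or the TATA box TATAAA.
Tmsb4x, chrX:167209219-167209468, minus strand: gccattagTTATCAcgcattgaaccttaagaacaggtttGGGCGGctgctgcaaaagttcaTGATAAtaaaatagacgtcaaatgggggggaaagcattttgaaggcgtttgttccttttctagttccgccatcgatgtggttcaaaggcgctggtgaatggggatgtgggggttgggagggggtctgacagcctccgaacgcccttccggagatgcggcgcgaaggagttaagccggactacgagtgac
Prps2, chrX:167382750-167382999, minus strand: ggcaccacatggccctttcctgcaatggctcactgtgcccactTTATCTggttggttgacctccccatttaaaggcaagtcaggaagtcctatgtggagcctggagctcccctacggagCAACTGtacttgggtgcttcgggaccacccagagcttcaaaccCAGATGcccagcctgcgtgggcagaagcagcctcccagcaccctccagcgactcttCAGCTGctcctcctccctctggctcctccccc
Scn2b, chr9:45117626-45117875, plus strand: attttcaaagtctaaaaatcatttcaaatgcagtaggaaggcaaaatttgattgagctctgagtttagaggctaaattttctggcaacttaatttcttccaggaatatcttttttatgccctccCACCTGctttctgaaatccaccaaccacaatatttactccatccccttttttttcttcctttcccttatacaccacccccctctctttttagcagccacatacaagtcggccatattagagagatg
Scn4b, chr9:45138374-45138623, plus strand: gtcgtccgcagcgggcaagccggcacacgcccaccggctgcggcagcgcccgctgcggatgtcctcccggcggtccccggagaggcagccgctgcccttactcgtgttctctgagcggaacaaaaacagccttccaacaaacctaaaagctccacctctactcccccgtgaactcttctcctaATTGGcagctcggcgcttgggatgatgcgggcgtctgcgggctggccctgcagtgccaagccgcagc
Tex19.1, chr11:121145893-121146142, plus strand: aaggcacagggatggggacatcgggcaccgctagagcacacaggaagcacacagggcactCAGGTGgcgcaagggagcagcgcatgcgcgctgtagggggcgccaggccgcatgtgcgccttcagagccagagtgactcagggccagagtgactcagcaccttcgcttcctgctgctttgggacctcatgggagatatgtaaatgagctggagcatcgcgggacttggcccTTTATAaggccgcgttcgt
The neighbours differ in base composition and in marked letters. The Tmsb4x stretch held 15 CpG dinucleotides and the Prps2 stretch 4, and each held a GATA form. Scn2b had 1 CpG and Scn4b 23, and neither had a GATA form. Tex19.1 had 15 CpG, with TATAAA (read on the other strand) close to the start.

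Differences among the derived groups were tested with edgeR's quasi-likelihood test in a model of the 12 libraries together, adjusting by Benjamini-Hochberg over 12837 tested genes. The rule did not use these differences, but it set a floor of 50 reads over each derived group. Tested genes at large have no such floor, which limits the comparison of members with them. All 27 members passed the filter on low counts. Between FL and KD, 7 members were higher and 7 lower in FL, or 51.9%, against 58% of all tested genes called in that comparison (26.3% higher and 31.7% lower). Between delta45 and KD, 6 were higher and 8 lower in delta45, also 51.9%, against 59.9% of all tested genes. Between FL and delta45, 10 were higher and 6 lower in FL, or 59.3%, against 52.8% of all tested genes. These shares lie near those of all genes. The median absolute log2 change of the members was 0.50 between FL and KD, 0.77 between delta45 and KD and 1.0 between FL and delta45, where all tested genes had 0.58, 0.58 and 0.54. The libraries of the groups did not overlap for 15 members between FL and KD (59.7% of all tested genes), 14 between delta45 and KD (63.5%) and 19 between FL and delta45 (69%). Each KD library enters both comparisons with KD. With library totals in place of TMM, the median of all tested genes moved by -0.27 log2 for FL against KD. The members then split into 5 higher and 8 lower, or 38.5% of calls higher against 50% with TMM, while over all tested genes that share moved from 45.4% to 26.7%. The median of FL against delta45 moved by -0.28.

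**Figure D2:**
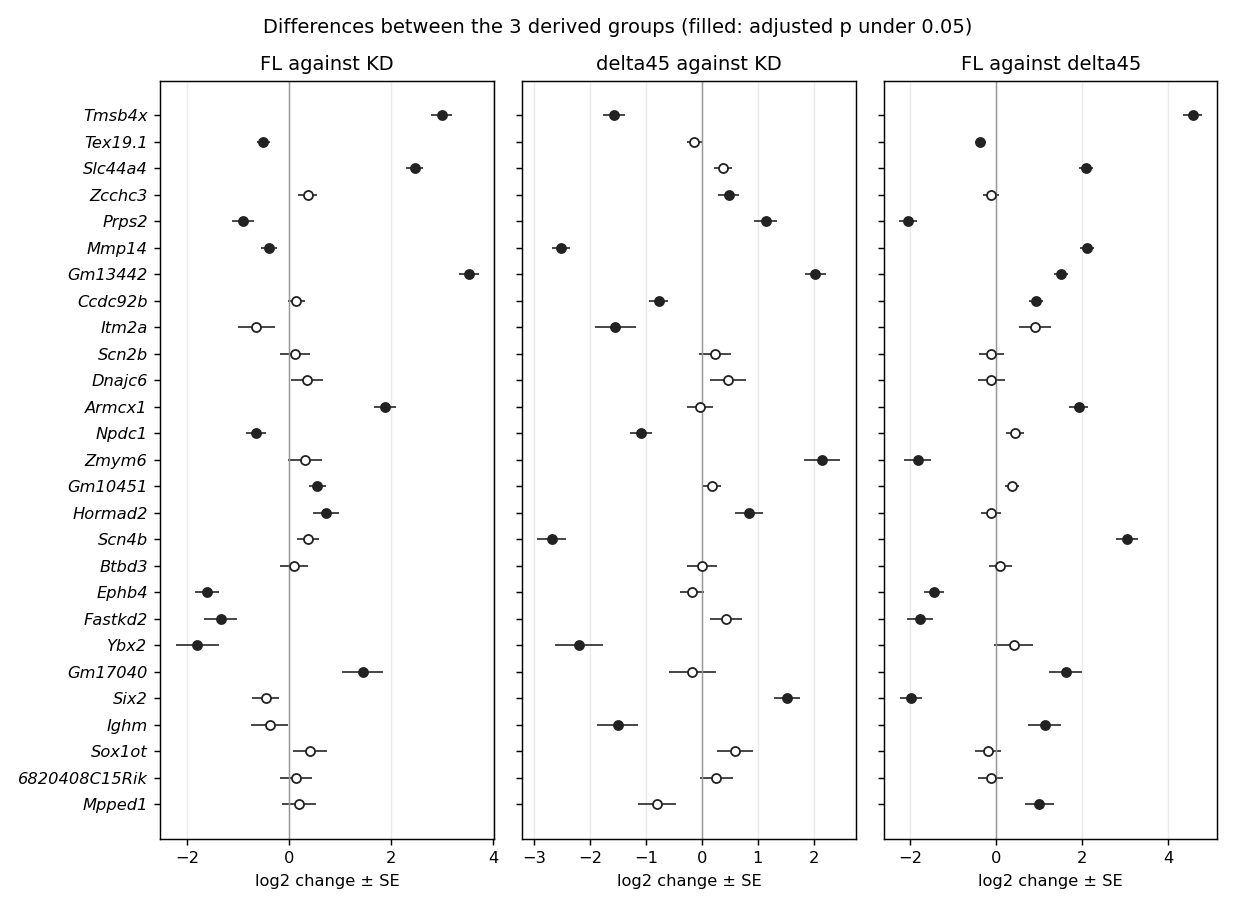
Log2 change ± SE of each of the 27 genes between the derived groups, from the edgeR fit to 12 libraries; filled points have an adjusted p under 0.05. Tmsb4x and Gm13442 reach furthest to the right in FL against KD, and Scn4b and Mmp14 furthest to the left in delta45 against KD.

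Tmsb4x (ENSMUSG00000049775) encodes thymosin beta-4, a small protein that holds actin monomers and keeps them from polymerising. It had 0 reads in each control library. Its level was 731, 381 and 501 CPM in the 3 KD libraries, 185, 174 and 183 in delta45, and 4060, 4260 and 4560 in FL. The groups did not overlap, with delta45 lowest and FL highest. FL was 7.98-fold above KD (log2 change 3.0 ± 0.205, edgeR adjusted p = 5.01e-07) and 23.7-fold above delta45 (log2 change 4.57 ± 0.221, edgeR adjusted p = 2.23e-08). The delta45 level was 2.97-fold below that of KD (log2 change -1.57 ± 0.196, edgeR adjusted p = 5.69e-05). FL also had the highest Ldb1 level and the highest erythroid marker sum; their part in the Tmsb4x level was not tested.

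Prps2 (ENSMUSG00000025742) encodes a phosphoribosyl pyrophosphate synthetase, which makes the sugar phosphate used for purine and pyrimidine nucleotides. It lies near Tmsb4x on chromosome X, with the counted genes Tlr8 and Tlr7 between them, neither of which passed the filter on low counts. Prps2 also had 0 control reads but was ordered the other way. Its level was 42.4, 24.5 and 24 CPM in KD, 69.8, 66.3 and 65.5 in delta45, and 16.1, 14.5 and 17.8 in FL. Delta45 was highest and FL lowest, without overlap. Prps2 was 2.21-fold higher in delta45 than in KD (log2 change 1.14 ± 0.201, edgeR adjusted p = 0.000592) and 1.87-fold lower in FL than in KD (log2 change -0.91 ± 0.208, edgeR adjusted p = 0.00321). Over the 9 derived libraries the log2 CPM of Tmsb4x and Prps2 had a Pearson r of -0.892, as a description of libraries that share groups.

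Several members encode proteins of the cell surface. Slc44a4 (ENSMUSG00000007034), a transporter of the choline transporter-like family, had 1 control read. It stood at 15.5, 21.2 and 24.7 CPM in KD, 25.0, 26.8 and 28.2 in delta45, and 120, 106 and 112 in FL. The FL libraries stood above all others. FL was 5.51-fold above KD (log2 change 2.46 ± 0.163, edgeR adjusted p = 8.64e-08) and 4.22-fold above delta45 (log2 change 2.08 ± 0.159, edgeR adjusted p = 1.98e-07). Delta45 and KD did not overlap, but their difference was not called (log2 change 0.39 ± 0.159, edgeR adjusted p = 0.0516).

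Mmp14 (ENSMUSG00000000957), a membrane-anchored metalloprotease that cleaves collagen and activates the gelatinase Mmp2, had 0 control reads. Its level was 68.7, 59.9 and 45.8 CPM in KD, 9.94, 10.2 and 10.5 in delta45, and 48.3, 38.9 and 45 in FL. The delta45 libraries stood apart below the others, while KD and FL overlapped. Delta45 was 5.70-fold below KD (log2 change -2.51 ± 0.166, edgeR adjusted p = 5.95e-07) and FL 4.33-fold above delta45 (log2 change 2.11 ± 0.165, edgeR adjusted p = 1.05e-06). FL against KD was at the threshold (log2 change -0.40 ± 0.155, edgeR adjusted p = 0.0452), and without KD replicate 1 its log2 change was -0.20 and not called. The call was also lost on leaving out KD replicate 2 or any FL library, and with RLE scaling, without the low-count filter, in a fit of the derived groups only and with DESeq2 (log2 change -0.38, -0.39, -0.34 and -0.38).

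Scn2b and Scn4b encode accessory beta subunits of voltage-gated sodium channels and lie side by side on chromosome 9. Scn2b (ENSMUSG00000070304) had 5 control reads, all in control replicate 2. Its level was 17.7, 15.5 and 12.3 CPM in KD, 17.6, 16.5 and 19.4 in delta45, and 20.4, 14.9 and 14.1 in FL. The 3 groups overlapped, and no difference was called (log2 change 0.11 ± 0.291 for FL against KD and 0.23 ± 0.287 for delta45 against KD, edgeR adjusted p = 0.76 and 0.503). The FL against KD value had the other sign with library totals only (-0.17). Scn4b (ENSMUSG00000046480), with 1 control read, was at 8.23, 7.92 and 7.88 CPM in KD, 1.22, 0.958 and 1.59 in delta45, and 11.4, 8.95 and 10.7 in FL. Delta45 lay far below both other groups, 6.40-fold below KD (log2 change -2.68 ± 0.259, edgeR adjusted p = 3.27e-06) and 8.27-fold below FL (log2 change 3.05 ± 0.258 for FL against delta45, edgeR adjusted p = 5.33e-07). The adjacent genes thus had different orders among the derived groups, with r = -0.322 over the 9 libraries.

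Ephb4, a receptor tyrosine kinase for ephrin-B2, had 2 control reads. It was at 8.78, 6.73 and 6.48 CPM in KD, 6.47, 6.90 and 6.13 in delta45, and 1.98, 2.33 and 2.77 in FL. FL was the low group, 3.07-fold below KD (log2 change -1.62 ± 0.234, edgeR adjusted p = 7.04e-05) and 2.72-fold below delta45. Itm2a, a type II membrane protein, was at 53.0, 19.6 and 18.5 CPM in KD, 11.9, 7.86 and 11.7 in delta45, and 17.7, 21.5 and 19.5 in FL. KD replicate 1 stood well above the other KD libraries. Delta45 was below KD (log2 change -1.55 ± 0.371, edgeR adjusted p = 0.00311), or -0.84 without KD replicate 1. FL against KD was not called (log2 change -0.64 ± 0.364, edgeR adjusted p = 0.145), and the sign turned to 0.10 without KD replicate 1, while without KD replicate 3 the change was -0.91 and called. Npdc1, a membrane protein named for neural proliferation and differentiation, was highest in KD, at 21.6, 16 and 22.8 CPM against 8.62, 9.33 and 10.6 in delta45 and 12.7, 11.4 and 14.4 in FL. Both differences from KD were called (log2 change -1.09 ± 0.201 for delta45 and -0.65 ± 0.201 for FL, edgeR adjusted p = 0.000534 and 0.0144), the latter not without FL replicate 2.

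Members known from germ cells formed a group of 3, with levels ordered in 3 different ways. Tex19.1 (ENSMUSG00000039329), which restrains retrotransposons in germ cells and placenta, had 1 control read. It was at 79.2, 76.7 and 104 CPM in KD, 77.8, 80.1 and 79.0 in delta45, and 56.6, 61.3 and 65.5 in FL. FL was lowest without overlap, although the differences were small (log2 change -0.50 ± 0.136 against KD and -0.37 ± 0.135 against delta45, edgeR adjusted p = 0.0064 and 0.035). The second of these was lost without the low-count filter and on leaving out any 1 delta45 or FL library. Tex19.2 is its paralog, and how the counting divided reads that could match both was not tested. Hormad2, a protein of the meiotic chromosome axis, was at 8.44, 4.23 and 7 CPM in KD, 11.2, 12.6 and 12 in delta45, and 12, 9.88 and 10.9 in FL. KD was the low group, with a log2 change of 0.85 ± 0.247 for delta45 and 0.72 ± 0.251 for FL (edgeR adjusted p = 0.0101 and 0.0252). The FL call was lost with library totals only (log2 change 0.45) and without KD replicate 2, FL replicate 1 or FL replicate 3. Ybx2, an RNA-binding Y-box protein of germ cells, had 5 control reads and stood at 15.5, 7.16 and 3.94 CPM in KD, 1.45, 1.98 and 2.5 in delta45, and 1.98, 2.79 and 2.88 in FL. KD was highest but spread widely. Ybx2 was lower in delta45 (log2 change -2.20 ± 0.428) and in FL (-1.80 ± 0.429) than in KD, with edgeR adjusted p = 0.000746 and 0.00297. Without KD replicate 1 these values were -1.48 and -1.03, both still called.

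Dnajc6, best known from neurons, encodes auxilin, which strips clathrin coats from vesicles. It was at 18.8, 13.2 and 5.60 CPM in KD, 19.8, 17.6 and 14.8 in delta45, and 16.6, 15.0 and 16.7 in FL, with overlap and no call in any comparison. Armcx1, an X-linked armadillo repeat protein of the outer mitochondrial membrane, had 0 control reads and was at 7.46, 5.97 and 9.72 CPM in KD, 9.23, 5.56 and 7.87 in delta45, and 30, 27.7 and 28.0 in FL. The FL libraries stood clear of the rest, 3.69-fold above KD (log2 change 1.88 ± 0.224, edgeR adjusted p = 3.42e-05) and 3.76-fold above delta45. Btbd3, which orients dendrites in cortical neurons, was at 7.04, 5.97 and 3.68 CPM in KD, 5.91, 4.92 and 5.90 in delta45, and 7.50, 4.88 and 5.47 in FL, with overlap and no call. Fastkd2, a mitochondrial RNA-binding protein needed for the mitochondrial ribosome, was at 5.16, 3.26 and 6.57 CPM in KD, 7.17, 5.24 and 7.95 in delta45, and 1.46, 2.09 and 2.30 in FL. It was lowest in FL, with a log2 change of -1.34 ± 0.318 against KD and -1.77 ± 0.311 against delta45 (edgeR adjusted p = 0.00387 and 0.00057).

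Zcchc3, a zinc finger protein that aids the sensing of foreign nucleic acids, had 0 control reads and was at 29.8, 45 and 28.5 CPM in KD, 40.9, 51.2 and 51.9 in delta45, and 40.2, 50.3 and 42.3 in FL. The groups overlapped. Delta45 was called above KD (log2 change 0.48 ± 0.185, edgeR adjusted p = 0.0421), but not without KD replicate 1, KD replicate 3, delta45 replicate 2 or delta45 replicate 3. Zmym6, a MYM-type zinc finger protein, was at 9.48, 6.62 and 2.80 CPM in KD, 28.7, 25.1 and 31.0 in delta45, and 7.50, 6.98 and 9.12 in FL. Delta45 stood above the others, 4.44-fold above KD (log2 change 2.15 ± 0.326, edgeR adjusted p = 0.000224). Six2, a homeobox factor that keeps kidney progenitors undifferentiated, was likewise highest in delta45. It was at 2.44, 2.39 and 1.58 CPM in KD, 6.14, 5.81 and 6.51 in delta45, and 1.56, 1.4 and 1.65 in FL. Six2 was 2.87-fold higher in delta45 than in KD (log2 change 1.52 ± 0.237, edgeR adjusted p = 0.00027) and 3.95-fold lower in FL than in delta45. FL and KD overlapped, and their difference was not called (log2 change -0.46 ± 0.268, edgeR adjusted p = 0.162).

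Ccdc92b, a coiled-coil gene, was at 18.1, 25.2 and 24.3 CPM in KD, 12.6, 13.9 and 13.0 in delta45, and 24.7, 25.3 and 24.4 in FL. Delta45 was the low group (log2 change -0.77 ± 0.164 against KD, edgeR adjusted p = 0.00139). Ighm, the constant region of the mu immunoglobulin heavy chain, was scarce, at 2.02, 5.10 and 5.43 CPM in KD, 1.55, 1.28 and 1.51 in delta45, and 4.17, 2.67 and 2.71 in FL. It was lower in delta45 than in KD (log2 change -1.50 ± 0.371, edgeR adjusted p = 0.00366) and higher in FL than in delta45 (1.12 ± 0.377, edgeR adjusted p = 0.0233), the latter not with library totals only (0.85) or without delta45 replicate 2 or FL replicate 1. Of the 14 lymphoid markers, which do not include Ighm, 7 had 0 reads in control, 5 in KD, 6 in delta45 and 9 in FL. Their sum was 14.1 to 16.5 CPM for control libraries, 36 to 47.1 for KD libraries, 6.52 to 6.98 for delta45 libraries and 6.25 to 9.65 for FL libraries, and their part in the Ighm level was not tested. In bulk RNA, fewer cells of a type and less RNA per cell cannot be told apart.

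Of the 27 members, 22 are protein-coding in GENCODE M21 (81.5%, against 88.8% of 12490 tested genes with annotation). The others are Gm13442, Gm10451, Gm17040, Sox1ot and Ighm. Gm13442 is annotated antisense to Aif1l and shares 168 exon bases with it. Its level was 4.32, 5.21 and 7 CPM in KD, 24.3, 20.4 and 22.4 in delta45, and 70.8, 56.3 and 62.8 in FL, with 0 control reads and no overlap between groups. FL was 11.5-fold above KD (log2 change 3.53 ± 0.19, edgeR adjusted p = 8.23e-08). Aif1l itself had 207 reads over control, 760 over KD, 1970 over delta45 and 1832 over FL. Unlike CPM, these totals are not scaled for depth, and delta45 held 47481614 gene reads where FL held 40198050. Gm17040, a transcribed processed pseudogene, shares 261 exon bases with Cish on the opposite strand. It was at 0.976, 4.12 and 3.50 CPM in KD, 2.39, 2.62 and 2.42 in delta45, and 7.50, 7.56 and 7.71 in FL. FL was highest (log2 change 1.44 ± 0.398 against KD, edgeR adjusted p = 0.0074), and Cish had 2711, 2914, 6233 and 9843 reads over control, KD, delta45 and FL. The library kit does not mark strand, so reads of Gm13442 and Aif1l, and of Gm17040 and Cish, cannot be told apart where they overlap. Zmym6 shares 682 exon bases with Tmem35b and Npdc1 612 with Entpd2, in each case on the same strand. Gm10451, a long intergenic RNA, was called 1.47-fold higher in FL than in KD (edgeR adjusted p = 0.0154), which was lost with library totals only and without FL replicate 3. Sox1ot, 6820408C15Rik and Mpped1, a metallophosphoesterase gene, lay between 0.833 and 3.90 CPM in all 9 libraries. Of these 3, only Mpped1 had a call, for FL above delta45 (log2 change 1.0 ± 0.338, edgeR adjusted p = 0.027), and it was lost with library totals only (0.73), without the low-count filter, with DESeq2, and on leaving out any 1 library of either group other than delta45 replicate 2. Altogether 5 members had no call in any of the 3 comparisons: Scn2b, Dnajc6, Btbd3, Sox1ot and 6820408C15Rik.

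**Figure D3:**
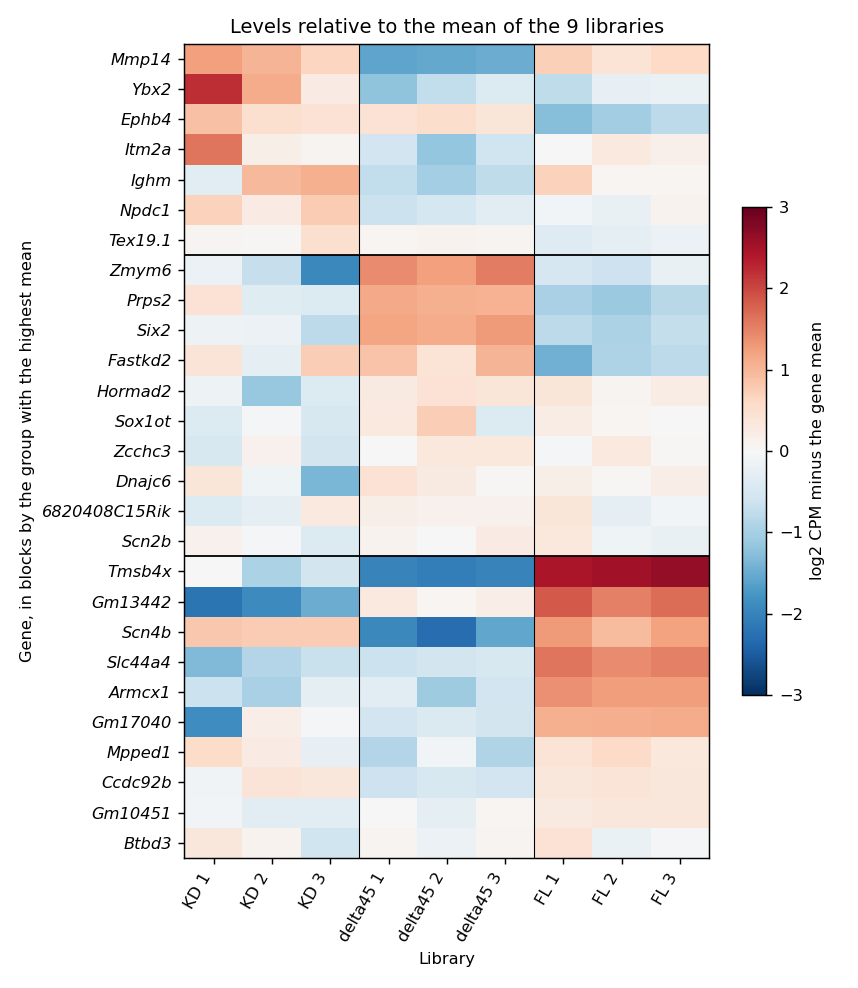
Log2 CPM of the 27 genes in the 9 derived libraries minus the mean of each gene over those libraries, in 3 blocks by the group with the highest mean (KD, delta45, FL from top to bottom). KD replicate 1 stands out in red for Ybx2 and Itm2a, and Tmsb4x runs from blue in delta45 to dark red in FL.

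The group with the highest mean was FL for 10 members, delta45 for 10 and KD for 7. The lowest was KD for 11, delta45 for 11 and FL for 5. Likeness was measured by Pearson's r of log2 CPM over the 9 derived libraries, which share groups and library scaling, and is given as a description. The pattern most like that of Tmsb4x was Armcx1 (r = 0.92), and that of Slc44a4 was also Armcx1 (r = 0.949). Prps2 was most like Six2 (r = 0.955), and Mmp14 most like Scn4b (r = 0.956). The members that ran most oppositely were Slc44a4 and Ephb4 (r = -0.987). None of these most alike members adjoin each other on a chromosome.

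The 27 genes lay on 12 chromosomes. Chromosome X held 4 of them, Tmsb4x, Prps2, Itm2a and Armcx1 (14.8%, against 3.88% of tested genes), chromosome 11 held 4 (14.8% against 9.22%) and chromosome 2 held 5 (18.5% against 8.69%). The median merged exon length was 3227 bases, against 4088 for tested genes. In RefSeq order 26 of the 27 could be placed by symbol, and 3 pairs stood together: Tmsb4x with Prps2, Scn2b with Scn4b, and Zcchc3 with 6820408C15Rik.

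The genes next to the members were examined to see how far the lack of reads in control extended along the chromosome. Of 52 nearest counted neighbours, 19 had at least 50 control reads, 25 had at most 5 reads in every group, of which 19 had 0 reads in all 12 libraries, and 4 were members themselves. For 13 of the 26 placed members at least 1 adjoining gene had 50 or more control reads, and for 6 both had. The share of all counted genes with as many control reads is not given here. Mmp14 lay between Mrpl52, a mitochondrial ribosomal protein gene with 807 control reads, and Lrp10 with 8535. Slc44a4 lay between the histone methyltransferase gene Ehmt2 (11117 control reads) and the sialidase gene Neu1 (2059). Dnajc6 lay between Ak4 (2923) and Leprot (2559), and Ybx2 between Eif5a (17165) and Slc2a4 (153). Zcchc3, with 0 control reads, adjoined Sox12 with 1340. By contrast Fastkd2 lay between Mdh1b and 4933402D24Rik, and Tmsb4x between Gm15232 and Tlr8, all at 0 in control.

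The nearest neighbours that passed the low-count filter and were not members came to 46 genes. None had 5 or fewer control reads, and 43 had at least 50. That follows in large part from the choice, since genes with few reads and the members themselves were left out. Between KD and control, 20 were higher and 8 lower (43.5% and 17.4%, against 25.6% and 24.1% of all tested genes). Between delta45 and control, 15 were higher and 19 lower (32.6% and 41.3%, against 31.9% and 32.5%). Between FL and control, 14 were higher and 14 lower (30.4% each, against 28.1% and 31.2%). Calls in either direction covered 49.7%, 64.4% and 59.3% of all tested genes in these 3 comparisons, which share the control libraries. Their median log2 changes were 0.31, -0.11 and 0.08. Beside Zcchc3, Sox12 rose from 37.4 CPM in control to 106 in KD (log2 change 1.5, edgeR adjusted p = 1.84e-06). Beside Dnajc6, the adenylate kinase gene Ak4 fell from 80.4 to 10.9 CPM in delta45 (log2 change -2.88, edgeR adjusted p = 2.04e-08). Tceanc, the nearest such gene on one side of both Tmsb4x and Prps2, rose from 13.5 CPM in control to 35.3 in KD, 62.3 in delta45 and 41.8 in FL (edgeR adjusted p = 0.00129, 1.88e-05 and 0.000284). The other side held Gm15238, at 2.07, 1.78, 1.93 and 1.89 CPM, with no call.

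**Figure D4:**
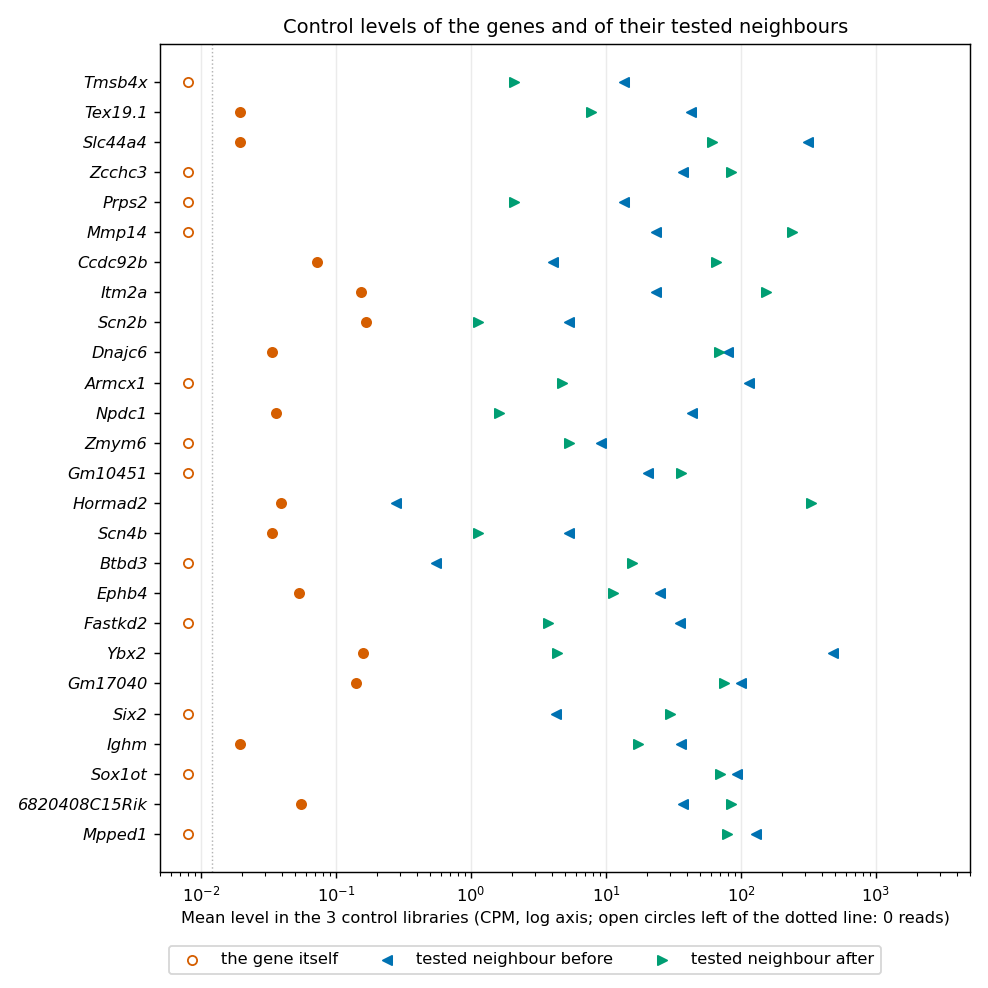
Mean level over the 3 control libraries, in CPM on a log axis, of 26 of the genes (circles; open circles left of the dotted line had 0 reads) and of the nearest tested gene before and after each on the chromosome (triangles). Each tested neighbour lies to the right of its gene, the 43 with at least 50 control reads among them. The choice largely sets this order, as the genes were chosen for few control reads and the neighbours passed the low-count filter.

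Close relatives of the members were looked up in the same libraries, from a list drawn up after the members were known. Of 29 relatives of 16 members, 22 had at least 50 control reads, so 13 members had a relative that was read in control. Tex19.2, beside Tex19.1, stood at 42.4 ± 4.2 CPM in control, 50.6 ± 6.43 in KD, 27.8 ± 2.62 in delta45 and 35.4 ± 4.17 in FL. Prps1, the other broadly expressed PRPP synthetase gene, was at 69.9 ± 10.4 CPM in control and 101 ± 3.08 in delta45. Tmsb10, the thymosin most like Tmsb4x, was at 8.01 ± 1.12 CPM in control and 3.55 ± 0.232 in FL. Per kilobase Tmsb10 was at 2.78 RPKM in FL, where Tmsb4x was at 3130. Gak, the ubiquitous relative of auxilin, was at 235 ± 19.3 CPM in control, Itm2b at 357 ± 26.8 and Ybx1 at 314 ± 4.15. Armcx2 was at 59.5 ± 1.82 CPM in control, 32.3 ± 11.1 in KD, 17.8 ± 2.68 in delta45 and 94.7 ± 5.81 in FL. By contrast Scn3b, Hormad1, Six4 and Mpped2 had 0 reads in control and at most 1 read over any other group.

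Genes of the pathways that members belong to were counted without the members themselves. Of 14 tested genes that handle actin monomers, 7 were higher and 0 lower in FL than in delta45, the comparison in which Tmsb4x differed most (25.8% of all tested genes were higher and 27% lower). Among them Gsn, gelsolin, was at 49.3 CPM in delta45 and 253 in FL (log2 change 2.36, edgeR adjusted p = 1.48e-09). With library totals only, 2 of the 14 were lower. In FL against KD, where Tmsb4x also differed, 3 of the 14 were higher and 2 lower (26.3% and 31.7% of all tested genes). Against control, 8 were higher and 1 lower in KD, 4 and 6 in delta45, and 7 and 2 in FL. The shares of all tested genes there were 25.6% and 24.1%, 31.9% and 32.5%, and 28.1% and 31.2%. Actb rose from 344 CPM in control to 1720 in KD, 1660 in delta45 and 2540 in FL, and the profilin gene Pfn1 from 511 to 1260, 1080 and 1330 (each with an edgeR adjusted p of at most 9.51e-05). Gsn rose from 203 CPM in control to 294 in KD and 253 in FL (edgeR adjusted p = 0.000357 and 0.00922). In delta45, by contrast, Gsn was lower than in control, at 49.3 CPM (edgeR adjusted p = 4.11e-09). Of 9 tested genes of PRPP and nucleotide synthesis, 6 were higher and 0 lower in delta45 than in KD (29.2% and 30.7% of all tested genes), as Prps2 was. In FL against delta45, 0 of the 9 were higher and 5 lower. Gart, a purine synthesis enzyme, was at 97.5 CPM in KD, 185 in delta45 and 52.2 in FL. Ppat, which uses PRPP in the first committed step of purine synthesis, was at 84.0, 164 and 82.6 CPM. Of 5 tested genes of pericellular proteolysis, 0 were higher and 4 lower in delta45 than in KD, as Mmp14 was. They were Furin, which activates Mmp14, the matrix protease inhibitor gene Reck, Bsg and Mmp17, and Furin was at 224 CPM in KD and 115 in delta45 (log2 change -0.96, edgeR adjusted p = 1.74e-05). In FL against delta45, 3 of the 5 were higher and 0 lower, and in FL against KD 0 and 0. Against control most of the 5 were lower, unlike Mmp14: 1 was higher and 3 lower in KD, 0 and 5 in delta45, and 1 and 4 in FL.

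RefSeq promoter windows of 300 bases (250 before to 50 after a start) were found for 23 of the 27 members, 27 windows in all. Ighm, Ccdc92b, Gm17040 and Gm13442 had none. CpG content, measured as the observed over expected ratio, was at or above 0.6 in 11 of the 27 windows (40.7%), against 70.1% of 11593 windows of tested genes and 35.8% of all 32851 windows. Its median was 0.556 in the members, 0.76 in tested genes and 0.384 in all. Six2, Sox1ot, Tmsb4x and Fastkd2 had ratios of 1.128, 1.081, 0.988 and 0.951, while Scn2b, Itm2a and Prps2 had 0.200, 0.253 and 0.270. Any of the 4 GATA forms (AGATAA or TGATAA or AGATAG or TGATAG), which share a core and were counted together, was found on either strand in 12 windows (44.4%), against 19.17% of tested genes and 29.8% of all. Those 12 belonged to Fastkd2, Btbd3 (both of its windows), Zcchc3, Sox1ot, Gm10451, Mpped1, Slc44a4, Six2, Itm2a, Tmsb4x and Prps2. CAGNTG, an E-box form, was in 15 windows (55.6%, against 43.9% and 51.4%), GGGCGG in 14 (51.9%, against 63.2% and 35.7%), CCAAT in 10 (37%, against 38% and 37.4%) and TATAAA in 3 (11.1%, against 6.49% and 13.6%). These are matches of letters and not binding sites.

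**Figure D5:**
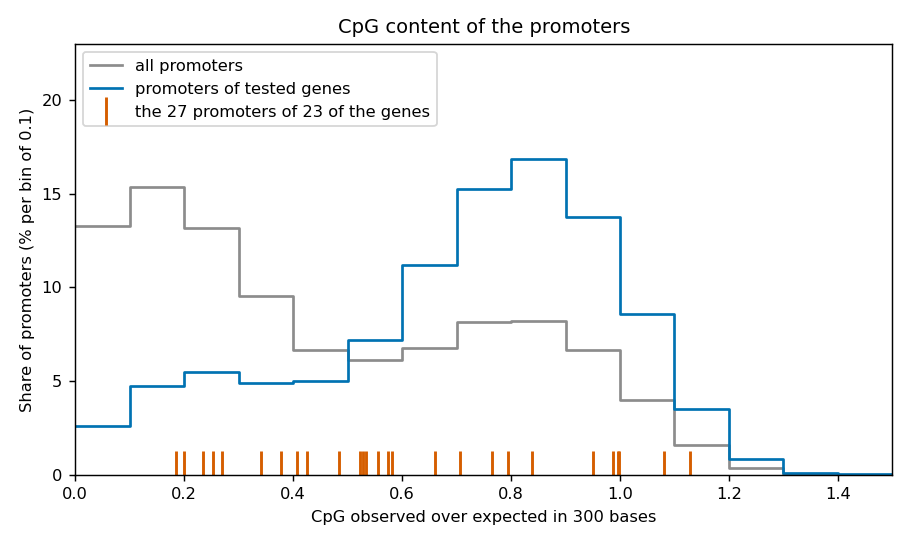
Distribution of the CpG observed over expected ratio in 300-base promoter windows, as the share of windows per bin of 0.1, for all windows (grey) and for windows of tested genes (blue); the orange ticks are the 27 windows of 23 members. The ticks spread from 0.185 to 1.128, with 16 of the 27 below the 0.6 mark, above which most windows of tested genes lie.

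Markers of other blood and tissue cells were read beside the members. Summed over 15 megakaryocyte markers, which do not include Tmsb4x, control libraries had 885 to 980 CPM, KD libraries 848 to 892, delta45 libraries 205 to 231 and FL libraries 2870 to 2980. At 0 reads were 2, 2, 3 and 1 of the 15. The sum had the same order among the derived groups as Tmsb4x. Summed over 15 myeloid markers, control libraries had 67.7 to 85.2 CPM, KD libraries 26.8 to 65.6, delta45 libraries 4.26 to 6.58 and FL libraries 9.06 to 11.1, with 5, 5, 6 and 5 at 0. For 11 mast cell and basophil markers the sums were 21.6 to 24.9, 63.4 to 75.8, 32.2 to 38.1 and 59 to 65 CPM, with 4, 5, 5 and 5 at 0. For 14 fibroblast and endothelial markers they were 51.8 to 59.1, 22.3 to 53.3, 11.8 to 13.5 and 22.5 to 29.8 CPM, with 6, 5, 5 and 7 at 0. The mast cell and basophil sum was higher in all 9 derived libraries than in all 3 control libraries, but most of it was Gata2, also a gene of the LDB1 complex list, at 12.9 CPM in control and 58.7, 32.9 and 58.7 in KD, delta45 and FL. The other 3 tested markers, Cpa3, Cma1 and Hdc, were lower in delta45 and in FL than in control. The part of any of these cell types in the members' levels was not tested.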

How the data were processed

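RNA-seq read counts per gene were used as deposited in 12 tables, one per library. The submitters' processing notes list TopHat 1.4.1, HTSeq 0.5.3p9, cutadapt 1.1 and DESeq 1.10.1, with mm9 as the build. How the tools were set and ordered, and the gene models, are facts not given in the sources used here. Per the labels' protocols, libraries were made with the TruSeq RNA V2 kit, which does not mark strand. The 5 rows that name no gene were left out, and multiply aligned reads are among them. Symbols matched 32919 of 37991 gene identifiers.

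Library scaling was TMM, genes were filtered with filterByExpr, and edgeR 4.0.16 (R 4.3.3) was fitted to all 12 libraries, with Benjamini-Hochberg adjustment over 12837 genes and a threshold of 0.05. DESeq2 1.42.0 was an alternative. The procedure was tested on simulated counts with the same spread for every gene and group, so it does not cover unequal spread between groups. Chi-square per degree of freedom between 2 libraries of a group was 32.2 to 96.0 in KD and 2.22 to 11.4 in delta45. In control it was 3.61 to 24.1, and in FL 3.95 to 15.6. Members were chosen on control against the rest, so those differences carry no test. Gene types and exon lengths came from GENCODE M21, and gene order and promoters from RefSeq GRCm38.p6, which differ from the authors' build, so no coordinates of the counts are printed. Deviations of same-numbered libraries from their group means had r = 0.326, 0.141 and 0.312 in FL and KD. They had 0.325, 0.201 and 0.118 in delta45 and KD, and 0.36, 0.25 and 0.0697 in FL and delta45. No r between differently numbered libraries is given for comparison, and the labels state no pairing. The main fit did not treat same-numbered libraries as pairs, and a block for the replicate number was an alternative.

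The members, pathway lists and marker lists were chosen with earlier results of these data known, and the relatives after the members' values were seen. All members are named. The rule gives values in every library for the 20 members with the highest mean level and for up to 5 non-overlapping calls each way in each comparison, with predicted genes by symbol only. Gm13442 and Gm17040 are predicted genes whose values were added after they were seen, and Ighm was added likewise. One gene that met the rule is not reported here.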

Additional observations from a re-analysis of the deposited data

Results flagged for a closer look

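Tmsb4x and Prps2 were flagged because FL and delta45 each differed from KD by a call in the opposite direction, and because the difference between FL and delta45 was itself called. For Tmsb4x the log2 change of FL against delta45 was 4.57 (edgeR adjusted p = 2.23e-08), with all 3 FL libraries above all 3 delta45 libraries. For Prps2 it was -2.05 (edgeR adjusted p = 9.01e-06), with all 3 FL libraries below all 3 delta45 libraries.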

How the results depend on the processing

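For the called member changes and 3 uncalled ones (Scn2b, Scn4b and Itm2a, FL against KD), 658 values were recomputed: 603 kept direction and side of the threshold, 50 kept direction only, 1 became called and 4 had the other sign. All 37 uncalled member changes gave 518 values, of which 32 had the other sign, none of them called, and 22 were called, over 13 of the changes. The log2 change of Scn2b, FL against KD, was -0.17 with library totals only and ran from -0.0681 to 0.30 over the libraries left out (-0.0258 without KD replicate 3), and the log2 change of Itm2a, FL against KD, ran from -0.91 to 0.10. Tested against a fold of 1.5, members lower in FL than in KD came to 3, and neighbours against control to 9 higher and 3 lower in KD, 8 and 11 in delta45, and 6 and 8 in FL. With the replicate block the members called were 8 higher and 7 lower in FL against KD, 7 and 8 in delta45 against KD, and 11 and 6 in FL against delta45, and no member call was lost.

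The read limits set the number of members: 13 with 0 control reads, 41 with at least 20 reads in the other groups and 17 with at least 100. Leaving out 1 library gave 20 (without FL replicate 3) to 31 (without control replicate 3). With 0 reads as the limit, genes read in 1 group alone were 25 in control, 1 in KD and 0 in delta45, and genes silent alone were 0 in delta45 and 0 in FL. With at least 20 reads, read alone were 156 in control, 37 in KD, 51 in delta45 and 1 in FL, and silent alone 16 in KD, 15 in delta45 and 32 in FL. With at least 100, read alone were 54 in control, 7 in KD and 0 in delta45, and silent alone 1 in FL. With reads scaled to the median library, 0 were read in delta45 alone. Leaving out 1 library gave ranges of 55 to 110 read in control alone (55 without control replicate 3), 6 to 19 in KD (6 without KD replicate 3), 0 to 6 in delta45 and 0 to 2 in FL. Silent alone were 0 to 10 in KD (10 without KD replicate 1), 4 to 11 in delta45 (11 without delta45 replicate 1) and 2 to 19 in FL (19 without FL replicate 3). Fewer libraries hold fewer reads, which lowers the totals that these limits are set on.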
